A study of Mus musculus with 10 samples.

Results

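The 48 genes described here are Myc, its relative Mycn and 46 genes for the making of ribosomes in the nucleolus. They were listed by name from their known roles, with no measured value in the rule, although earlier results of these data were known when the list was made. The rows of the count file were matched to the listed symbols by Ensembl identifier, and all 48 were found among the 48795 genes of the file. RNA-seq was carried out on cultured neural stem and progenitor cells (NSC/NPCs) from the subependymal zone (SEZ), the neurogenic layer under the lining of the brain's lateral ventricles, of mice labelled as 10 weeks old. According to the methods, the mutant line was kept on a C57BL/6J background; neither sex nor the number of animals per culture is given. Neurospheres (PRO), floating aggregates labelled as 3 DIV (days in vitro), were grown with 20 ng/ml EGF and 10 ng/ml FGF, and there were 3 WT libraries and 2 libraries labelled p27KO, a mutant of Cdkn1b. The same numbers of libraries came from cells that were plated on Matrigel for 2 days with FGF and collected at 2 + 1 DIV (DIFF), 24 h after the mitogens had been replaced by 2% serum. The stage comparison therefore holds together mitogen removal, serum, attachment and time in culture, which cannot be told apart. The methods speak of biological replicates, and the labels do not say whether the libraries of a group came from separate animals or cultures, so that the p-values measure the spread between these libraries, whatever its source.

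The labels limit the genotype comparison. Cdkn1b, which encodes the cell cycle inhibitor p27, was read at 103 to 113 CPM (CPM scales each count to the library total) in WT neurospheres and at 90.7 to 114 CPM in those labelled p27KO. At 2 + 1 DIV it was at 205 to 209 against 137 to 140 CPM. Reads assigned to the gene were thus not lost, but counts per gene do not show whether its transcript was intact. The paper's own evidence on the knockout lies outside these counts. It includes PCR genotyping of the animals, p27 immunostaining of the SEZ of p27KO mice and restoration of p27KO cells by a p27 cDNA. The difference at 2 + 1 DIV was -0.56 on the log2 scale (adjusted p = 0.012, edgeR). The free text of the p27KO-labelled samples also calls the cells WT, although their titles and genotype fields do not. Xist, the RNA of the inactive X chromosome, was at 1.16 to 2.57 CPM in the WT libraries and at 2258 to 3595 CPM in the p27KO-labelled ones, where the Y-linked Ddx3y, Eif2s3y, Kdm5d and Uty were at most 0.225 CPM. Genotype and sex can thus not be told apart, and 1 of the 48 genes, Dkc1, lies on the X chromosome. Library totals ranged from 19190068 to 25291674 counts. Among marker lists, the 6 genes of microglia summed to at most 0.622 CPM in any library and the 6 of endothelium and pericytes to at most 2.16 CPM, with C1qa, Cdh5 and Cldn5 at 0 in all of them. Fibroblast markers summed to at most 10.3 CPM. The 10 markers of cycling cells and the 6 of astrocytes moved with the stage and are given beside the results. In WT, 4 of the 9 markers of neural stem and progenitor cells rose and 3 fell, with a summed level of 7414 to 9120 CPM in all libraries. Both tested ependymal markers rose in WT, and the 6 listed summed to 16.6 to 24.2 CPM in neurospheres and to 87.4 to 106 CPM at 2 + 1 DIV. Of the neuroblast markers 2 of 6 tested rose in WT, and of the oligodendrocyte markers 2 of 3 tested rose and 1 fell. Of all genes tested 33.5% rose and 33.9% fell in WT (adjusted p under 0.05, edgeR). Counts in lists this short are a description only. In bulk RNA, fewer cells of a kind and less RNA per cell cannot be told apart.

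Ribosomes are made in the nucleolus, where RNA polymerase I copies the ribosomal RNA genes into a long precursor. Small nucleolar ribonucleoproteins (snoRNPs) and a large early particle, the small subunit processome, modify, fold and cut this precursor, and further factors mature and export each subunit. MYC, a transcription factor that binds DNA as a dimer with MAX at the sequence CACGTG, called an E-box, is known for driving genes at every one of these steps and is a classical response gene of growth factors. In the adult SEZ, ribosome production is needed for the growth of dividing progenitors.

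Promoter windows, 250 bases before to 50 after a start site, were taken from RefSeq on GRCm38.p6 for 42 of the 48 genes. Myc, Npm1, Fbl, Bop1, Rrs1 and Rrp12 had none. CACGTG, which reads the same on both strands, was found in 10 of these 42 genes (23.8%), against 11.8% of the 9539 tested genes with a window and 8.09% of the 27025 genes of the table. Of the 104 other ribosome biogenesis genes listed, 88 had a window and 15 of these (17.0%) held the sequence. It was in 13 of 35 genes with a window (37.1%) listed as MYC targets outside the nucleolus. Among cytosolic ribosomal proteins it was in 6 of 58 (10.3%). The general form CANNTG, with any base at N, was in 66.7% of the 42 genes and 66.0% of the tested genes. A looser pair of letters, CACGCG or its complement CGCGTG, was in 13 of the 42 genes and in 21.4% of the tested genes. The median GC content of the windows was 60.2% for the 42 genes and 61.3% for the tested genes. Of the 11 copies of CACGTG, 5 lay 20 to 215 bases before the start and 6 lay past it. The stretches below are shown because MYC and MAX read these letters, with CACGTG in capitals; whether it is bound in these cells was not measured.
Nop2, chr6:125131798-125131853, plus strand: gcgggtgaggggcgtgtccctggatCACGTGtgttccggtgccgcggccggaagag
Utp18, chr11:93885767-93885811, minus strand: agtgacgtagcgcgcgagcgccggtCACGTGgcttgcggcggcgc
Rrn3, chr16:13780626-13780681, plus strand: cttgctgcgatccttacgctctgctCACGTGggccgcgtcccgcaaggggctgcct
Rrn3, chr16:13780459-13780514, plus strand: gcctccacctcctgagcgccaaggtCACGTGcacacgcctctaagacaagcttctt
Imp4, chr1:34439683-34439738, plus strand: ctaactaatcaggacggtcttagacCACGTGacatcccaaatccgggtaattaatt
Pes1, chr11:3963965-3963994, plus strand: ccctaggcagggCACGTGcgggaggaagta
Wdr43, chr17:71616220-71616249, plus strand: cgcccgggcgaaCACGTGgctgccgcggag
Utp20, chr10:88826765-88826789, minus strand: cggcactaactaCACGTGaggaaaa
The stretches of Nop2, Utp18 and Rrn3 overlap no annotated exon and that of Imp4 overlaps an exon of the antisense gene Gm28306. The copies of CACGTG in Pes1, Wdr43 and Utp20 lie past the RefSeq start of their window, and their stretches overlap exons of their own genes. For Wdr43, the GENCODE gene begins further upstream, at chr17:71615895. The stretch printed for Pes1 begins before its start. Ltv1, Mybbp1a and Tsr1 hold the sequence past the start as well.

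All 48 genes passed the filter on low values, and 12859 genes were tested. From neurospheres to 2 + 1 DIV in WT cultures, 47 of the 48 genes were DOWN and 1, Mycn, was UP, at an adjusted p under 0.05 in edgeR's quasi-likelihood test. Of all genes tested, 33.9% were DOWN and 33.5% were UP. The median log2 fold change of the 48 genes was -1.46, and that of all genes was -0.0019. In p27KO-labelled cultures 46 genes were DOWN and Mycn was UP, against 30.2% DOWN and 27.5% UP among all genes, and the median was -1.35. The exception was Imp4, with a log2 fold change of -0.30 ± 0.13 (SE, adjusted p = 0.0717). CPM ranges of both stages were apart and lower at 2 + 1 DIV for 47 of the 48 genes in each genotype, where 35.6% of all genes in WT and 39.8% in p27KO-labelled cultures were placed so; Mycn was apart and higher, as were 36.3% and 40.0% of all genes. A fall of more than 1 on the log2 scale was fitted for 36 of the 46 nucleolar genes in WT and for 35 in p27KO-labelled cultures. The share of all genes with such a fall was not counted, so that these numbers are a description only.

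**Figure D1:**
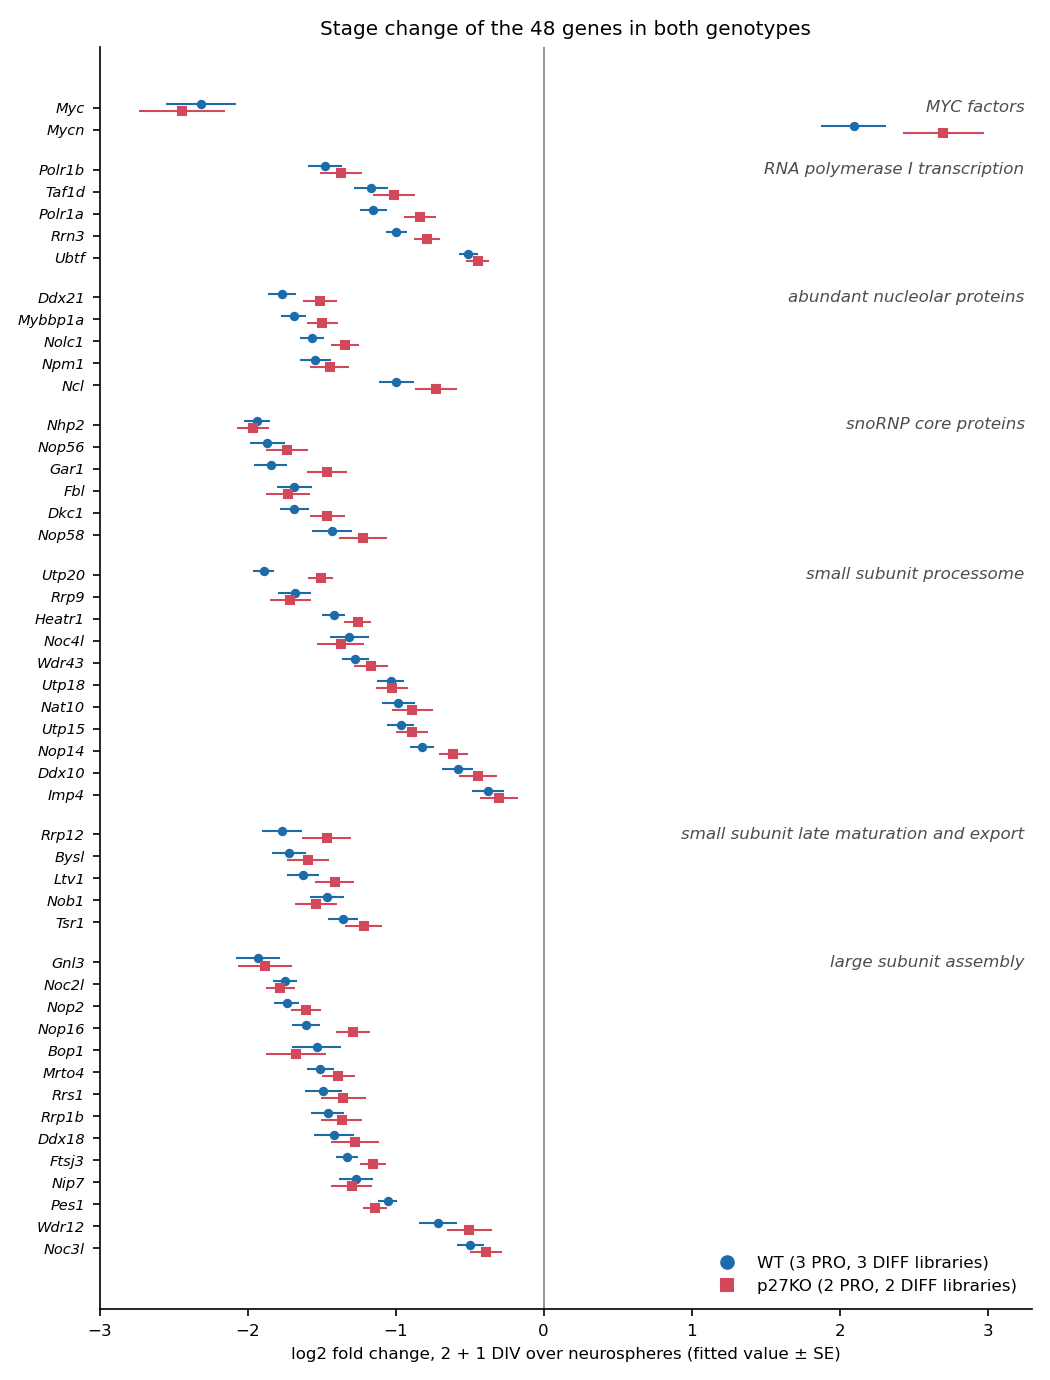
Log2 fold change from neurospheres to 2 + 1 DIV (fitted value ± SE) of each of the 48 genes, ordered by role, in WT (blue circles) and p27KO-labelled (red squares) cultures. Every nucleolar gene lies left of 0 in both genotypes, from -1.94 for Nhp2 to -0.38 for Imp4 in WT, while Mycn lies right of 0.

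Myc (ENSMUSG00000022346, chr15:61985391-61990374 on GRCm38) was read at 188, 160 and 156 CPM in the WT neurospheres and at 44.6, 22.1 and 35.7 CPM at 2 + 1 DIV. The p27KO-labelled libraries had 129 and 168 CPM as neurospheres and 24.0 and 31.8 CPM at 2 + 1 DIV. The stages did not overlap in either genotype, whereas the genotypes overlapped at both stages. Myc fell 4.98-fold in WT (log2 fold change -2.32 ± 0.24, adjusted p = 2.4e-05) and 5.43-fold in p27KO-labelled cultures (-2.44 ± 0.29, adjusted p = 0.00011). It was the largest fall among the 48 genes in both genotypes. The WT values at 2 + 1 DIV were spread more widely, relative to their mean, than those in neurospheres.

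Mycn (ENSMUSG00000037169, chr12:12936093-12941914), the MYC relative best known from embryonic neural progenitors, moved the other way. Its WT values were 3.60, 3.07 and 2.81 CPM in neurospheres and 10.5, 15.6 and 14.6 CPM at 2 + 1 DIV. In p27KO-labelled libraries they were 1.86 and 2.90 CPM, then 16.7 and 14.8 CPM. All DIFF libraries were above all neurosphere libraries. The rise was 4.27-fold in WT (2.10 ± 0.22, adjusted p = 1.9e-05) and 6.51-fold in p27KO-labelled cultures (2.70 ± 0.27, adjusted p = 3.2e-05).

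Levels of different genes were compared as CPM per kb of the longest coding transcript. Myc stood at 71.7 and Mycn at 1.18 CPM per kb in WT neurospheres, a ratio of 60.7, and at 14.6 and 5.07 CPM per kb at 2 + 1 DIV, a ratio of 2.88. In p27KO-labelled cultures the ratio of these levels went from 71.3 to 2.03. Mycl, the third family member, was at 6.10 CPM per kb in WT neurospheres and at 21.1 at 2 + 1 DIV, above Myc. Of the summed level of the 3 genes per kb, Myc made up 90.8% in WT neurospheres and 35.8% at 2 + 1 DIV, where the sum itself was lower at 40.8 CPM per kb. The p27KO-labelled cultures had 91.3% and 34.7%.

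The partners of MYC were examined as a list of 11 genes for the MAX and MLX dimer network, Mycl included, of which 10 were tested. In WT 7 of these rose and 2 fell. Mycl rose from 19.6 to 22.3 CPM to between 67.1 and 77.3 CPM (log2 fold change 1.78 ± 0.11, adjusted p = 5.7e-07). MXD proteins take the place of MYC on MAX and repress, and Mxi1 (1.51), Mxd1 (1.42) and Mxd4 (0.68) rose, as did Mlxip (0.59), Mga (0.55) and Mnt (0.42). Mxd3, the member of that group known from cells in S phase, fell by 3.48 on the log2 scale, and Mlx, the partner of a parallel branch, fell by 1.04. Max itself, the shared partner, was at 75.8 to 84.4 CPM in WT neurospheres and at 81.3 to 86.2 CPM at 2 + 1 DIV (0.07 ± 0.07, adjusted p = 0.42). In p27KO-labelled cultures the same genes passed the test except Mnt (0.15 ± 0.12, adjusted p = 0.29), and Max had -0.11 ± 0.09 (adjusted p = 0.30). The difference between genotypes in these changes did not pass for any of the 10 genes by edgeR, and 1 of them, Mxd3 (1.38 ± 0.42, adjusted p = 0.52), had an unadjusted p under 0.05. Mlxipl was at most at 1.43 CPM in any library and was not tested.

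**Figure D2:**
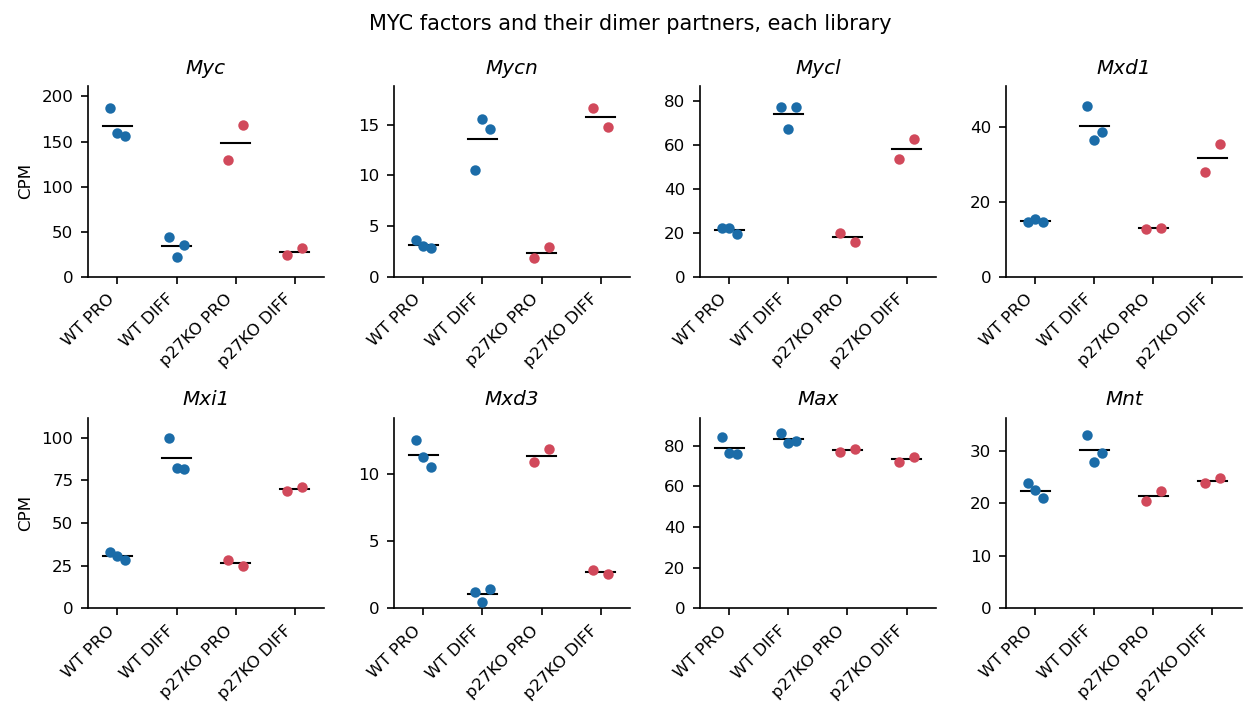
CPM of Myc, Mycn, Mycl and 5 genes of the dimer network in each library (dots) with the group mean (line), for WT (blue) and p27KO-labelled (red) cultures at both stages; each panel has its own axis from 0. Myc and Mxd3 are lower and Mycn, Mycl, Mxd1 and Mxi1 are higher in every DIFF library than in every PRO library of the same genotype, while Max stays between 72.0 and 86.2 CPM.

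The 5 genes for RNA polymerase I transcription all fell in both genotypes, with medians of -1.15 in WT and -0.83 in p27KO-labelled cultures. Polr1a, the largest subunit of the enzyme, went from 122 to 127 CPM in WT neurospheres to between 53.0 and 62.1 CPM, and from 111 and 117 to 59.0 and 71.0 CPM in p27KO-labelled cultures. Polr1b, the second largest subunit, fell more, by 1.48 and 1.37 on the log2 scale. Taf1d, of the SL1 promoter complex, fell by 1.17 and 1.01. Rrn3, the factor that makes the polymerase ready for initiation in response to growth signals, fell by 0.99 and 0.79. Ubtf, which encodes the factor UBF that coats the active ribosomal RNA genes, fell least of the 5, by 0.51 ± 0.07 and 0.45 ± 0.08 on the log2 scale, from 170 to 176 CPM to between 120 and 126 CPM in WT.

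The 5 abundant nucleolar proteins fell with medians of -1.56 in WT and -1.45 in p27KO-labelled cultures. Ncl (nucleolin) had the highest CPM of the 48 genes, with 1024, 975 and 1173 CPM in WT neurospheres and 520, 478 and 609 CPM at 2 + 1 DIV. Its p27KO-labelled values were 1321 and 1046 CPM, then 734 and 719 CPM. Npm1 (nucleophosmin), a histone and ribosome chaperone, fell from 684 to 728 CPM to between 228 and 274 CPM in WT. Its log2 fold change was -1.54 ± 0.11 in WT and -1.45 ± 0.13 in p27KO-labelled cultures. The helicase gene Ddx21 (-1.77 and -1.51), Mybbp1a (-1.69 and -1.50) and the snoRNP chaperone gene Nolc1 (-1.56 and -1.34) fell further than Ncl in both (-0.99 ± 0.12 and -0.73 ± 0.14).

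Of the roles, the 6 core proteins of the snoRNPs had the largest median fall, -1.76 in WT and -1.60 in p27KO-labelled cultures. Nhp2 (ENSMUSG00000001056, chr11:51619735-51623714), of the H/ACA particles that convert uridine into pseudouridine, had the largest fitted fall of the 46 nucleolar genes, with Gnl3 within 1 SE of it. It was at 79.2, 67.9 and 72.8 CPM in WT neurospheres and at 18.9, 17.9 and 21.1 CPM at 2 + 1 DIV. In p27KO-labelled cultures it was at 70.0 and 69.3 CPM, then at 17.7 and 18.7 CPM. The values of each stage were close together, and the log2 fold changes were -1.94 ± 0.09 (adjusted p = 1.3e-07) and -1.96 ± 0.11 (adjusted p = 1.7e-06). Gar1 (-1.84 and -1.46) and Dkc1, the pseudouridine synthase (-1.68 and -1.46), belong to the same particle. Among the box C/D proteins, which guide methylation, Nop56 (-1.87 and -1.73) and Nop58 (-1.43 and -1.22) fell. The methyltransferase gene Fbl (fibrillarin) fell by 1.68 ± 0.12 and 1.73 ± 0.15 on the log2 scale. RSEM could divide its reads with Gm5812, whose transcript matched 984 bases of Fbl at 96.8% identity and whose level swung between 0 and 21.3 CPM among libraries. Added together, both genes gave 98.0, 90.5 and 87.6 CPM in WT neurospheres and 30.0, 22.1 and 26.6 CPM at 2 + 1 DIV. In p27KO-labelled neurospheres the sums were 83.5 and 84.9 CPM where Fbl alone gave 79.8 and 63.6 CPM, and at 2 + 1 DIV they were 23.4 and 26.4 CPM.

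The 11 genes of the small subunit processome had the widest range of the nucleolar roles, from -1.89 to -0.38 in WT, with medians of -1.03 in WT and -1.02 in p27KO-labelled cultures. Utp20 (ENSMUSG00000004356, chr10:88746607-88826804), a large scaffold protein, fell most in WT. Rrp9, a protein of the U3 particle, fell by 1.68 and 1.71 on the log2 scale. Heatr1 (-1.42 and -1.26), Noc4l (-1.31 and -1.37), Wdr43 (-1.27 and -1.17), Utp18 (-1.03 and -1.02), the RNA acetyltransferase gene Nat10 (-0.98 and -0.89), Utp15 (-0.97 and -0.89), Nop14 (-0.82 and -0.61) and the helicase gene Ddx10 (-0.58 and -0.44) fell in both genotypes. Imp4, a binding protein of the U3 particle, was the least changed nucleolar gene. It was at 51.7, 46.4 and 54.7 CPM in WT neurospheres and at 35.5, 38.6 and 44.4 CPM at 2 + 1 DIV (-0.38 ± 0.11, adjusted p = 0.0101), and at 52.7 and 57.3, then 43.0 and 48.1 CPM in p27KO-labelled cultures. Without WT DIFF replicate 1, the WT change of Imp4 was -0.28 (adjusted p = 0.0541).

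Late maturation of the small subunit was represented by 5 genes, all of which fell (medians -1.62 and -1.47). Rrp12, an export factor, fell by 1.77 and 1.47 on the log2 scale, Bysl (bystin) by 1.72 and 1.59, Ltv1 by 1.62 and 1.41, Nob1, the nuclease that makes the final cut of 18S RNA, by 1.46 and 1.54, and Tsr1 by 1.35 and 1.22.

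For the large subunit, 14 genes fell in both genotypes, with medians of -1.47 and -1.33. Gnl3 (nucleostemin, ENSMUSG00000042354, chr14:31012433-31019152), a GTPase named for its abundance in stem cells, was at 63.7, 69.5 and 75.4 CPM in WT neurospheres and at 19.5, 14.3 and 21.3 CPM at 2 + 1 DIV. The p27KO-labelled libraries had 73.5 and 55.7 CPM, then 16.7 and 19.0 CPM. All DIFF values were below all neurosphere values, with log2 fold changes of -1.93 ± 0.15 (adjusted p = 2.8e-06) and -1.88 ± 0.18 (adjusted p = 2.6e-05). Noc2l (-1.75 and -1.78) and the RNA methyltransferase gene Nop2 (-1.74 and -1.60) followed. Noc3l, which encodes the partner of NOC2 in the pre-60S particle, had much less of a fall, -0.49 ± 0.09 and -0.39 ± 0.11. PES1, BOP1 and WDR12 form the PeBoW complex, and their genes fell unequally. Bop1 had -1.53 ± 0.16 in WT and -1.67 ± 0.20 in p27KO-labelled cultures, Pes1 -1.05 ± 0.06 and -1.14 ± 0.08, and Wdr12 -0.71 ± 0.13 and -0.50 ± 0.15. The other members fell by 1.27 to 1.61 in WT and by 1.15 to 1.39 in p27KO-labelled cultures on the log2 scale, namely Nop16, Mrto4, Rrs1, Rrp1b, Ddx18, Ftsj3 and Nip7. Without p27KO-labelled DIFF replicate 1 or PRO replicate 1, the falls of Ddx10, Wdr12 and Noc3l in p27KO-labelled cultures lost significance (log2 fold changes of -0.49 to -0.25, adjusted p = 0.0656 to 0.134), as did that of Wdr12 without DIFF replicate 2 (-0.51, adjusted p = 0.0738). The change of these genes in WT kept its significance without any 1 library.

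Members that hold CACGTG in the window had a median log2 fold change of -1.31 in WT (10 genes, -1.89 to -0.38), and nucleolar members with a window but without it had -1.43 (31 genes, -1.94 to -0.49). The ranges overlapped over nearly their whole length.

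Neighbouring gene lists put these values in context. Of 103 other ribosome biogenesis genes tested, 92 fell and 1 rose in WT, with a median of -0.84. Ppan (-2.08) and Rrp15 (-1.91), both of large subunit assembly, fell most, and Ttf1, a terminator of RNA polymerase I, rose (0.49). Of 38 genes listed as MYC targets outside the nucleolus, 37 fell (median -1.34), led by Srm, the spermidine synthase (-2.80), and again by Ppan. Ppan is on both of these lists and, as a gene of large subunit assembly, does not match the name of the second. Of 79 cytosolic ribosomal proteins 76 fell (median -0.92), led by Rpl12 (-1.83) and Rps2 (-1.31). Their many pseudogene copies make single values uncertain. Of 12 noncoding hosts of snoRNAs 9 fell (median -0.97), most of all Snhg15 (-1.86) and Snhg6 (-1.59). The lists for RNA polymerases II and III had smaller median falls than the 5 genes for RNA polymerase I transcription (-1.15), although Ubtf of these 5 fell by only 0.51. The lists differ in make-up, so that their medians do not rank the polymerases. Those 5 genes are the subunits Polr1a and Polr1b with the factors Rrn3, Taf1d and Ubtf. The other lists hold 13 subunits, and 22 subunits and factors. For RNA polymerase II 10 of 13 fell (median -0.62), led by Polr2h (-1.15) and Polr2m (-1.03). For RNA polymerase III and its factors 12 of 22 fell and 3 rose (median -0.32). Polr3g (-1.65) and Polr3d (-1.27) fell most, and Polr3gl, the form of the POLR3G subunit known from differentiated cells, rose by 0.85 and Maf1, the repressor of the polymerase, by 0.60. In p27KO-labelled cultures these lists had medians of -0.79, -1.21, -1.01, -1.01, -0.61 and -0.28 in the order given, and each gene named here passed in the same direction. The 46 nucleolar genes had -1.46 in WT and -1.35 in p27KO-labelled cultures.

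The 46 nucleolar genes together made up 5388 to 5813 CPM in WT neurospheres and 2084 to 2467 CPM at 2 + 1 DIV, 40.8% of the neurosphere mean. In p27KO-labelled cultures they made up 5203 to 5957 CPM and then 2548 to 2673 CPM, 46.9% of the WT neurosphere mean. The 10 markers of cycling cells, all of which fell in both genotypes, moved with them and further. They summed to 3180 to 3503 CPM in WT neurospheres, 236 to 374 CPM in WT DIFF, 3450 to 3859 CPM in p27KO-labelled neurospheres and 903 to 997 CPM in p27KO-labelled DIFF. As shares of the WT neurosphere mean, the WT and p27KO-labelled DIFF cultures held 9.96% and 28.9%. Of the 6 astrocyte markers 5 rose in both genotypes, and S100b had -0.64 in WT (adjusted p = 0.32) and -1.16 in p27KO-labelled cultures (adjusted p = 0.18). Together they went from a summed 781 to 879 CPM in WT neurospheres to 2380 to 3087 CPM, and from 822 to 1027 CPM to 2547 to 2741 CPM in p27KO-labelled cultures. The part of the cycling and astrocyte markers in the changes of the nucleolar genes was not tested.

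**Figure D3:**
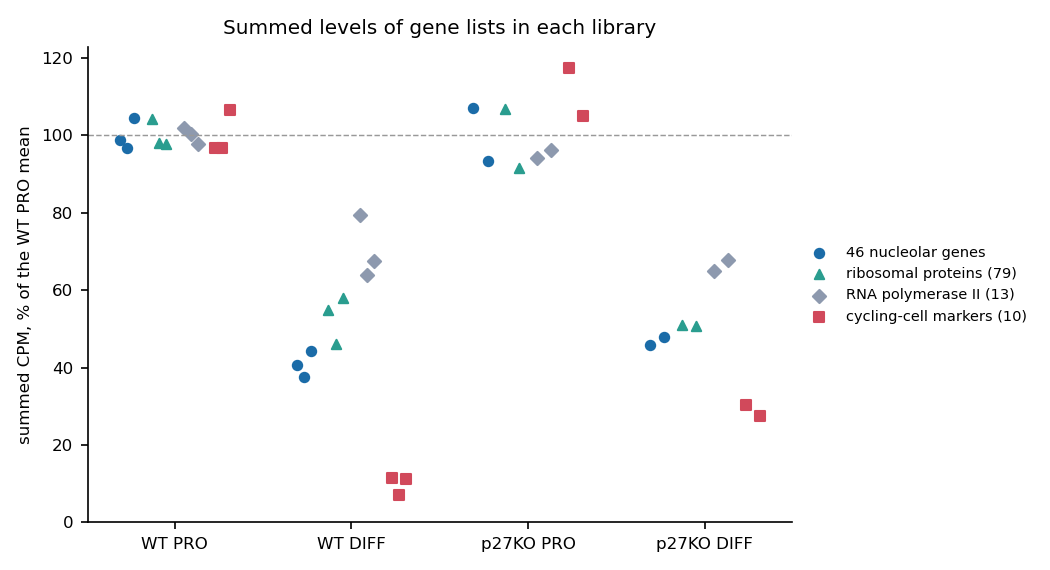
Summed CPM of 4 gene lists in each library, as a percentage of the mean of the WT neurospheres (dashed line at 100), with 1 symbol per library. In DIFF libraries the 46 nucleolar genes lie at 37.4% to 48.0%, the ribosomal proteins at 46.1% to 58.0% and RNA polymerase II at 63.8% to 79.4%, while cycling markers lie at 7.18% to 11.4% in WT and at 27.5% and 30.3% in p27KO-labelled libraries.

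Whether the fall differed between genotypes was tested as an interaction of genotype and stage. None of the 48 genes passed edgeR's test or DESeq2's. Of all genes, 0.389% passed in the positive and 0% in the negative direction by edgeR, and 1.21% and 0.0317% by DESeq2. No gene of the 12930 to 13013 tested passed by edgeR in 7 of the 10 fits that left out 1 library, namely those without any 1 p27KO-labelled library or any 1 WT neurosphere library. At an unadjusted p under 0.05 there were 2 genes, Utp20 (0.38 ± 0.11) and Polr1a (0.32 ± 0.14), with adjusted p of 0.376 and 1.00. That is about the share over all genes, 4.31%. The estimate was positive, a smaller fall or a larger rise in p27KO-labelled cultures, for 38 of the 48 genes, with a median of 0.13. Of the 12859 genes tested 6193 had a positive estimate, and their median over all genes was -0.0086. For the 46 nucleolar genes the estimates lay between -0.14 and 0.38, and their 95% intervals reached from -0.71 to 0.77 on the log2 scale, so that differences up to these bounds remain possible. The interval of Myc was -0.94 to 0.69 and the sign of its estimate changed without WT DIFF replicate 1 (0.12), p27KO-labelled PRO replicate 2 (0.10) or p27KO-labelled DIFF replicate 1 (0.06). That of Mycn was -0.16 to 1.37. All 10 cycling markers had positive estimates with a median of 1.28, and 3 of them, Ccna2 (1.72 ± 0.25, adjusted p = 0.023), Mki67 (1.65 ± 0.27, adjusted p = 0.0392) and Mcm5 (1.18 ± 0.15, adjusted p = 0.023), passed. None of the 10 passed in those 7 fits (adjusted p of 0.0514 to 0.232 for these 3 genes), although all 10 estimates stayed positive. Mki67 was also lost without WT DIFF replicate 3 (adjusted p = 0.0677), and with the replicate block within genotype Mki67 (adjusted p = 0.0582) and Ccna2 (adjusted p = 0.085) were lost. DESeq2 called 7 of the 10. The interaction estimates of the nucleolar genes and of the cycling markers did not overlap, the lowest of the latter being 0.46 for Pcna.

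**Figure D4:**
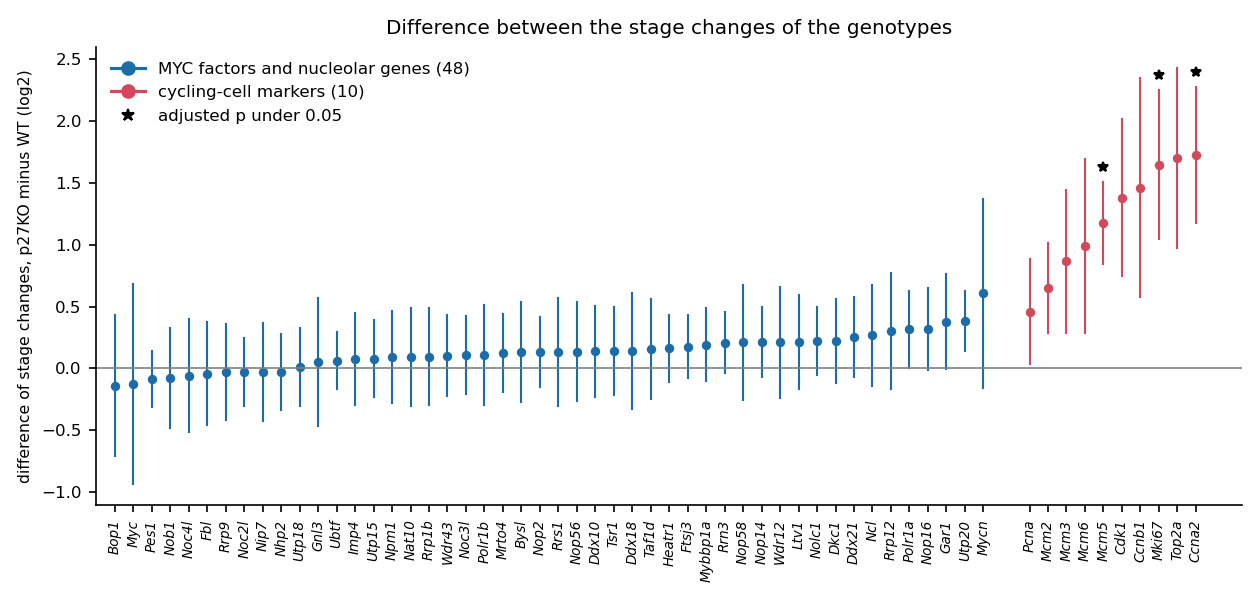
Difference between the stage changes of the genotypes (p27KO-labelled minus WT, log2, dot) with its 95% interval for the 48 genes (blue) and the 10 cycling-cell markers (red); stars mark an adjusted p under 0.05. No interval of a nucleolar gene reaches beyond -0.71 or 0.77, and 3 cycling markers carry a star, which all 3 lose in 7 of the 10 fits that leave out 1 library.

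In neurospheres no gene of the 48 differed between genotypes by edgeR or DESeq2, and none had an unadjusted p under 0.05 in edgeR, against 4.69% of all genes. By edgeR 0.0156% of all genes were higher in the p27KO-labelled libraries and 0% lower, and by DESeq2 0.156% each. The log2 differences lay between -0.38 for Mycn and 0.30 for Wdr12, with a median of -0.06. CPM ranges were apart for 11 genes with lower p27KO-labelled values (10.9% of all genes were so placed) and for 1 gene, Utp20, with higher values (6.94% of all genes).

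At 2 + 1 DIV 1 gene of the 48, Utp20, was higher in p27KO-labelled than in WT cultures and none was lower, against 1.91% higher and 0.124% lower among all genes. DESeq2 called 4 higher, Ncl, Nop58, Wdr12 and Utp20, and none lower, against 4.12% higher and 0.888% lower among all genes by the same tool. Utp20 was at 34.5, 34.8 and 34.8 CPM in the WT libraries and at 46.2 and 51.7 CPM in the p27KO-labelled ones. Its log2 difference was 0.51 ± 0.08 (adjusted p = 0.0071). In neurospheres it was at 124, 130 and 130 CPM in WT and at 136 and 138 CPM in p27KO-labelled libraries (0.13 ± 0.07, adjusted p = 1.00), and its stage change was -1.89 ± 0.07 in WT and -1.51 ± 0.08 in p27KO-labelled cultures. The call at 2 + 1 DIV was lost without p27KO-labelled DIFF replicate 2 (0.44, adjusted p = 0.106) and in a fit of the groups compared alone (0.51, adjusted p = 0.0846).

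Below an unadjusted p of 0.05 at 2 + 1 DIV there were 6 of the 48 genes, all with higher p27KO-labelled values. Of all genes 14.8% were below it in either direction, so that the number is no result about these genes. Besides Utp20 these were Wdr12 (0.51 ± 0.14, adjusted p = 0.125), Nop58 (0.49 ± 0.15, adjusted p = 0.157), Ncl (0.46 ± 0.13, adjusted p = 0.134), Ddx18 (0.35 ± 0.15, adjusted p = 0.319) and Ltv1 (0.29 ± 0.12, adjusted p = 0.298), chosen for naming after their values were seen. Wdr12, Nop58, Ncl and Ddx18 lie on chromosome 1, and Utp20 and Ltv1 on chromosome 10. The other members on chromosome 1, Rrs1 (0.29 ± 0.14) and Imp4 (0.22 ± 0.12), also had positive differences. So did Ddx21 (0.19 ± 0.10), the other member on chromosome 10. The part of chromosome position in these differences was not tested. With the replicate number as a block, Wdr12 (0.63, adjusted p = 0.0162), Ncl (0.54, adjusted p = 0.0243) and Nop58 (0.59, adjusted p = 0.0433) passed as well. Replicate 3 exists only in WT, and leaving out WT DIFF replicate 3 without a block gave 0.63, 0.55 and 0.59. Same-numbered WT and p27KO-labelled libraries did not deviate together across genes (r of -0.251 to -0.0439 within a stage). The block is therefore not backed as a pairing of the genotypes. Wdr12 was at 36.7, 37.1 and 47.2 CPM in WT and at 56.2 and 57.8 CPM in p27KO-labelled libraries. Nop58 was at 53.8, 46.9 and 62.3 CPM in WT and at 71.3 and 79.9 CPM. The ranges of both genes were apart. In neurospheres the differences were 0.30 ± 0.14 for Wdr12, 0.28 ± 0.15 for Nop58, 0.19 ± 0.13 for Ncl, 0.20 ± 0.15 for Ddx18 and 0.08 ± 0.12 for Ltv1, each with an adjusted p of 1.00. There Rrs1 had 0.15 ± 0.14 and Imp4 0.14 ± 0.12, and no member outside chromosome 1 had a larger positive difference than these. CPM ranges at 2 + 1 DIV were apart and higher for 8 of the 48 genes, where 17.0% of all genes were so placed, and apart and lower for 3, Noc4l, Pes1 and Noc2l, where 20.4% were. The median difference over the 48 genes was 0.08, and that of all genes was -0.015. Myc (-0.27 ± 0.26) and Mycn (0.22 ± 0.22) had adjusted p of 0.676 and 0.683. Of the 10 cycling markers, 9 were higher at 2 + 1 DIV in p27KO-labelled cultures, with a median of 1.45. Their part in the values of Utp20, Ncl, Nop58 and Wdr12 was not tested. Dkc1, the X-linked member, had a difference of 0.19 ± 0.11 (adjusted p = 0.463).

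Exon bases are shared with another annotated gene for 21 of the 48 genes, for 15 of them with a protein-coding gene, and whether strand was used in counting is not given in the sources used here, so that such reads cannot be told apart. Myc, Mycn, Utp20, Npm1, Fbl and Ubtf share none. For 6 of the 48 genes, Ddx18, Fbl, Npm1, Pes1, Rrs1 and Taf1d, another gene has a transcript with at least 90% identity over at least 50% of their longest coding transcript. For Ddx18, Npm1, Pes1, Rrs1 and Taf1d none of these copies exceeded 2.03 CPM. The match of Fbl to Tulp4 covered 690 bases of a gene read at 283 to 460 CPM, which was higher at 2 + 1 DIV, where Fbl was lower.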

How the data were processed

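The libraries were made from amplified cDNA, and the labels give the molecule as polyA RNA. The authors aligned the reads with STAR against Ensembl's mouse transcripts (GRCm38) and deposited the expected counts of RSEM, whole numbers per gene without normalization. Versions are not given in the sources used here. Symbols and positions come from GENCODE vM21 (GRCm38), and promoter windows from RefSeq. Members and lists were chosen with earlier results of these data known.

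A gene was left out where 4 or more of the 10 libraries had under 1 CPM, and 12859 genes stayed. The counts were fitted as 4 groups with edgeR 4.0.16 in R 4.3.3 (TMM scaling, factors 0.968 to 1.02, robust quasi-likelihood test, two-sided), with Benjamini-Hochberg adjustment over all genes tested and a threshold of 0.05. CPM values are counts over the library total, without TMM factors. At 19190068 to 25291674 counts per library, precision is set mainly by the 2 or 3 libraries per group. The study used DESeq2; version 1.42.0 is an alternative here, with others named in the closing section. The fits were run on simulated counts with the same spread for every gene, no pairing, and planted changes of 1 or 2 on the log2 scale. Smaller differences, such as the interaction estimates of the 48 genes, were not simulated. Same-numbered WT libraries of both stages deviated together across genes (r = 0.248, 0.301 and 0.396), which was taken as pairing. The main fit did not include this pairing, and only the alternative with the replicate block within genotype did. With that block 29 genes instead of 50 passed edgeR's interaction test in the positive direction. For p27KO-labelled libraries r was -0.138. Between same-numbered WT and p27KO-labelled libraries of a stage, r was -0.251 to -0.0439. Every pair of libraries of a group differed by more than sampling noise (chi-square per gene of at least 14.8).

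Values in every library are given for Myc, Mycn, the members with the 3 largest falls and rises per genotype (Mycn was the only rise), and any member past the threshold between genotypes. Others shown so were chosen after their values were seen. Of other lists, the whole dimer network and the 2 largest changes per direction are named. Python 3.11.15, pandas 2.3.3, matplotlib 3.10.9 and BLAST 2.17.0 were also used. The study's ATAC-seq data were not analysed here.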

Additional observations from a re-analysis of the deposited data

Results flagged for a closer look

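The stage change differed between genotypes, by the interaction test of edgeR, for 3 of the cycling markers given beside the nucleolar genes. These were Ccna2 (1.72 on the log2 scale), Mki67 (1.65) and Mcm5 (1.18), each with a smaller fall in p27KO-labelled cultures. All 3 calls were lost in 7 of the 10 fits that left out 1 library, where no gene passed the test. None of the 48 genes was past this threshold.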

How the results depend on the processing

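The fit was repeated with DESeq2, with its size factors inside edgeR, with another reading of the low-count filter or none, on the compared groups alone, with an absolute log2 fold change of at least 1 required, on thinned counts, with the replicate number as a block (over all libraries and within genotype) and without each library. Crossing the p27KO-labelled numbers in the block was chosen after seeing the data. Of 286 summary values of the 48 genes under these alternatives, 278 stayed within a set tolerance of the main fit. For a median this was a shift under 0.0924, the pooled SD between replicates of the median log2 CPM. Counts could differ by a limited factor, so that single calls could be lost. With the minimum fold change, 37 instead of 47 genes were DOWN in WT, which was within the tolerance. The number of genes higher in p27KO-labelled cultures at 2 + 1 DIV, 1 in the report, was 4 by DESeq2, 2 without a filter, 0 in the compared groups alone, 0 with the minimum fold change, 4 with the replicate block and 5 with the block crossed, and 0 to 1 when each library was left out (0 without p27KO-labelled DIFF replicate 2). Over all genes the number higher moved too, from 246 to 519 by DESeq2, 302 without a filter, 36 in the compared groups alone, 352 with the block and 436 with it crossed. The block called Ncl, Nop58, Utp20 and Wdr12 (adjusted p of 0.0243 for Ncl, 0.0433 for Nop58 and 0.0162 for Wdr12), and the crossed block also Ddx18 (0.46, adjusted p = 0.0365). Same-numbered libraries of the genotypes had negative r within each stage, so that the uncrossed block is not backed as a pairing between genotypes. The median stage change of p27KO-labelled cultures ran from -1.38 to -1.25 without each library, the latter without PRO replicate 1. The interaction of Myc ran from -0.35 to 0.12 and changed its sign without 3 libraries (0.06, 0.10 and 0.12). The cause of these shifts was not tested.

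Of single genes, Imp4 passed in p27KO-labelled cultures with the block within genotype (-0.30, adjusted p = 0.0422), under the other filter (-0.33, adjusted p = 0.047) and without one (-0.37, adjusted p = 0.0472), and Noc3l did not pass there in the compared groups alone (-0.35, adjusted p = 0.0753). The block changed no other call of a member among those followed across the alternatives. With 2 p27KO-labelled libraries per stage, leaving out 1 leaves a lone library that is assumed to vary like the other groups.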
